A study of Bos taurus with 2 samples.

Results

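RAB GTPases are small proteins that switch between a GTP-bound form, which sits on membranes, and a GDP-bound form, which a chaperone holds in the cytosol. Each RAB marks a membrane compartment (the Golgi, secretory granules, endosomes, lysosomes, lipid droplets) and recruits motors, tethers and fusion factors that move vesicles to and from it. In the lactating mammary gland, milk proteins and lactose leave the secretory cells in Golgi-derived vesicles, and milk fat leaves as lipid droplets wrapped in the apical plasma membrane. Members were taken by name: every gene feature of the array whose gene name, or the current symbol of its RefSeq accession, is RAB followed by a number and an optional letter. This gave 114 probes of 55 RAB genes among 43653 probes in all. Of these genes, RAB29 and RAB39A carry the older names RAB7L1 and RAB39 on the array. The rule itself uses names and no measured value, though it was chosen with earlier results of these data known.

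Mammary tissue of adult Chinese Holstein cows in late lactation was collected after slaughter, and 1 array is labelled mastitis and 1 normal. The design gives 3 cows with clinical mastitis and 3 without. The sources used here do not name the cow or cows behind either array. Antibiotics had been given to the cows with mastitis but not to the healthy ones, so that disease and treatment cannot be told apart. The tissue was a mixture of cell types, in which fewer cells of a type and less RNA per cell cannot be told apart. With 1 array per condition, the ratios below could not be checked across cows, no p-value was computed, and the SDs are technical.

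Both arrays shared a slide and a scan and were read in a single colour. The net signal of a probe (background subtracted) had a 75th percentile of 210 on the mastitis array against 128 on the normal array, and each array was divided by its own value to give the scaled signal used below. A probe was taken as measured when its net signal exceeded a threshold of 7.10 (mastitis) or 8.74 (normal), each 2.6 SD above the negative control spots, and when its spot had been found by the scanner software. On both arrays this was so for 91 RAB probes (79.8%), against 63.9% of all probes. Log2 ratios are mastitis minus normal, averaged over the measured probes of each gene. The pooled SD of this ratio was 0.271 over different probes of a RAB gene, 0.445 over those of all genes and 0.167 over replicate spots of the same probe. Over the 12473 genes measured on both arrays the median log2 ratio was -0.15, so that RAB genes are also given relative to this median. With the arrays scaled by the median or on spike-in probes that median was 0.0041 and 0.12, and with no scaling it was 0.57.

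The centre of the RAB family lay close to that of all genes. Of the 55 RAB genes, 46 were measured on both arrays. Their log2 ratios had a median of -0.22 with quartiles of -0.55 and 0.22, against a median of -0.15 with quartiles of -0.52 and 0.20 over all genes. Relative to the median of all genes, 21 RAB genes lay above and 25 below. A log2 ratio within 0.5 of 0 was found for 31 of the 46 (67.4%), against 63.6% of all genes. Lower by 2-fold or more with mastitis were 5 RAB genes (10.9%), beside 9.12% of all genes. These 5 were RAB26, RAB15, RAB3C, RAB40C and RAB7B. Higher by 2-fold or more were 0 RAB genes, beside 2.29% of all genes. At 1.5-fold, 11 RAB genes were lower against a background of 21.6%, and 2 (RAB34 and RAB12) were higher against 7.78%. These shares lie near or below those of all genes and show nothing particular to the family. Across the 46 genes, the level of a gene and its log2 ratio had a Spearman correlation of 0.08, a description over genes that share both arrays.

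**Figure D1:**
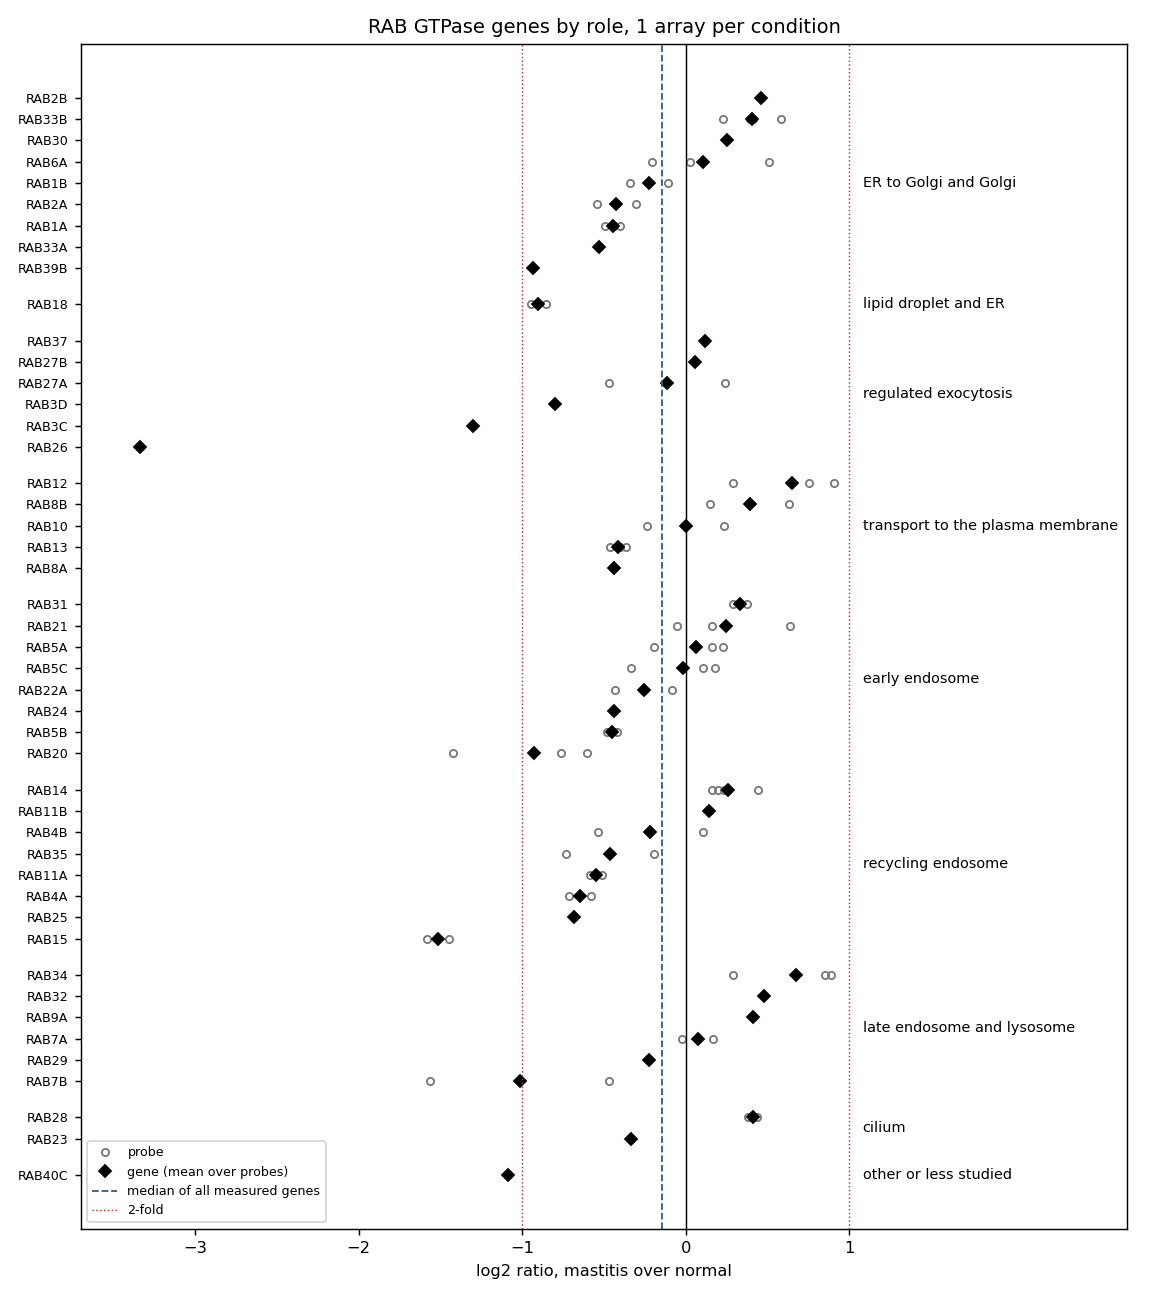
Log2 ratio (mastitis over normal) of the 46 measured RAB genes, grouped by role, with open circles for single probes and diamonds for the mean of a gene. RAB26 lies alone at -3.34, the remaining genes lie between -1.52 and 0.67, and no gene passes the 2-fold line on the higher side.

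The RABs of regulated exocytosis, which dock secretory granules at the plasma membrane, held the largest difference of the family. RAB26, a granule RAB of exocrine acinar cells in rat, had a scaled signal of 0.114 on the mastitis array against 1.16 on the normal array (net signals of 24 and 148). It was 10.1-fold lower (log2 ratio -3.34) and the 65th lowest of the 12473 genes, from a single probe. With the normexp background correction, which shrinks the ratios of dim probes, its log2 ratio was -1.87. RAB3C, a RAB3 known from neurons, was 2.46-fold lower, but this rested on 1 probe just above background, with net signals of 8 on the mastitis array against 12 on the normal array, while 2 further RAB3C probes were not measured. RAB3D, the RAB3 of exocrine granules in mouse, was dim too, with a net signal of 16 against 17 and a log2 ratio of -0.80. RAB3A and RAB3B, the synaptic members, were not above background on either array (net signals of 5 and 0 with mastitis, 3 and 3 in normal tissue).

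The RAB27 genes and RAB37 were close to 0. RAB27B, which carries granules and multivesicular bodies to the cell surface, had a scaled signal of 0.462 on the mastitis array against 0.445 on the normal array (log2 ratio 0.05). RAB27A, its relative of melanosomes and cytotoxic granules, had a log2 ratio of -0.12, and its 2 measured probes disagreed in sign (-0.47 and 0.24). RAB37, known from mast cell granules in mouse, had 0.805 on the mastitis array against 0.742 on the normal array (log2 ratio 0.12). The 6 measured genes of this group had a median of -0.46, or -0.31 relative to all genes, and 3 of the 6 lay below the median of all genes. With only probes of a net signal of at least 50, RAB27B and RAB37 alone were left and the median was 0.08.

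Most RABs of the recycling endosome, which return receptors and apical membrane to the cell surface, lay below the median of all genes. RAB15, which acts on transferrin receptor recycling, had the lowest ratio among RAB genes with more than 1 measured probe. Its brighter probe had a scaled signal of 2.80 on the mastitis array against 7.62 on the normal array, and the other 2.01 against 6.04. The log2 ratio was -1.52 with an SD of 0.10 over these 2 probes, a 2.86-fold difference. The other 2 RAB15 probes were dim, with net signals of 4 and 7 on the mastitis array against 10 and 8 on the normal array.

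RAB25, an epithelial relative of RAB11, had 2.69 on the mastitis array against 4.31 on the normal array (log2 ratio -0.68, 1 probe). RAB11A, the defining RAB of this compartment, had 4.49 and 1.67 on the mastitis array, against 6.73 and 2.38 for the same 2 probes on the normal array (log2 ratio -0.55, SD 0.05). RAB4A, of the fast recycling route, was at -0.65 (SD 0.09, 2 probes). RAB35, of the same route, was at -0.47 (SD 0.38) and RAB4B at -0.22, with 1 of its 2 probes above 0. RAB14 was the highest of the group at 0.26 (SD 0.13, 4 probes). The 8 genes had a median of -0.51, or -0.36 relative to all genes, and 6 of the 8 lay below the median of all genes. Only RAB15 was at least 2-fold lower.

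Late endosome and lysosome RABs lay above the median of all genes, apart from RAB7B and RAB29. RAB34, which positions lysosomes and acts in cilium formation, had the highest log2 ratio of all RAB genes at 0.67 (SD 0.34). Its 3 probes had scaled signals of 10.9, 0.448 and 0.276 on the mastitis array against 6.05, 0.242 and 0.227 on the normal array, so that each was higher with mastitis. RAB32, of lysosome-related organelles, had 4.40 on the mastitis array against 3.16 on the normal array (log2 ratio 0.48). RAB9A, which returns receptors from late endosomes to the Golgi, had 9.75 against 7.34 (log2 ratio 0.41), and its second probe was not found by the scanner software on either array. RAB7A, the defining RAB of late endosomes, was at 0.07 (SD 0.09, 3 probes). RAB34, RAB32 and RAB9A stayed above 0 under each processing setting compared except the displaced deposited rows, where RAB32 was at -0.14.

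RAB7B, which acts between late endosomes and the Golgi, was the exception at -1.01, 2.02-fold lower, and its 2 probes differed in size (SD 0.77). The brighter probe had 2.24 on the mastitis array against 3.10 on the normal array, a 1.38-fold difference, and the dim one 0.0952 against 0.281. The brighter probe alone would leave RAB7B within 2-fold. The 6 measured genes had a median of 0.24, or 0.39 relative to all genes, with 4 of the 6 above the median of all genes.

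**Figure D2:**
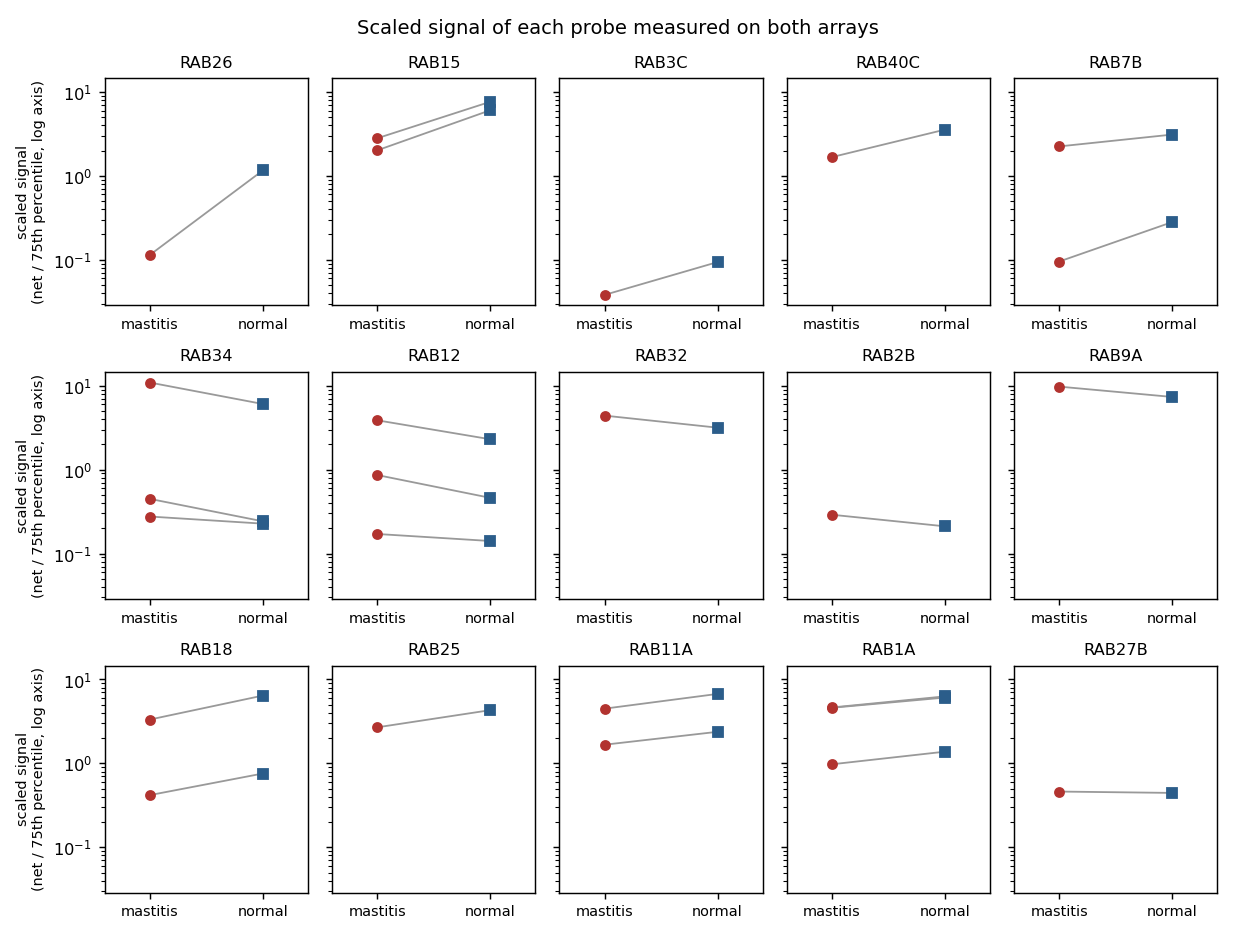
Scaled signal (net signal over the 75th percentile of the array, log axis) on the mastitis and the normal array for the 5 lowest RAB genes (top), the 5 highest (middle) and 5 others, each line being 1 probe measured on both arrays. RAB26 is at 0.114 on the mastitis array against 1.16 on the normal array, and both RAB15 probes slope alike. Heights of different probes are not comparable.

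The RABs of the Golgi and endoplasmic reticulum lay on both sides of the median of all genes, 4 above and 5 below. RAB1A, which brings vesicles from the endoplasmic reticulum to the Golgi, had scaled signals of 4.64, 4.60 and 0.976 on the mastitis array against 6.29, 6.09 and 1.38 for the same probes on the normal array (log2 ratio -0.45, SD 0.04). RAB1B, its close relative, was at -0.22 (SD 0.16, 2 probes), near the median of all genes. RAB2A, of the step between these compartments, was at -0.43 (SD 0.12, 3 probes). RAB6A, which acts within and from the Golgi, was at 0.11, and its 3 probes ranged from -0.21 to 0.51. RAB2B was among the 5 highest RAB genes at 0.46, with 0.290 on the mastitis array against 0.211 on the normal array, but its second probe was above background on the normal array alone (net signals of 5 with mastitis and 18 in normal tissue). With no filter on dim probes RAB2B was at -1.05 and with normexp at -0.08, so that its direction was not settled. The 9 measured genes of the group had a median of -0.22 and spread between -0.94 (RAB39B) and 0.46, and none was 2-fold apart. RAB39B, a Golgi RAB mutated in an inherited intellectual disability of humans, had 0.967 on the mastitis array against 1.85 on the normal array from 1 probe. RAB33B, which acts at the Golgi and in autophagy, was at 0.40 (SD 0.15), with all 4 of its probes between 0.23 and 0.58.

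RAB18, which sits on lipid droplets and the endoplasmic reticulum, was 1.87-fold lower. Its probes had 3.33 and 0.419 on the mastitis array against 6.43 and 0.758 on the normal array, and their ratios lay close together (log2 ratio -0.90, SD 0.07). RAB40C, of a small branch whose proteins serve as adaptors of ubiquitin ligases, had 1.67 on the mastitis array against 3.55 on the normal array (2.12-fold lower, log2 ratio -1.09). It rested on 1 probe, the second being below background on both arrays. With median or spike-in scaling it lay within 2-fold, at -0.94 and -0.82.

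The RABs listed under transport to the plasma membrane were split. RAB12 is a relative of RAB8 and is listed with this group, but sends the transferrin receptor to degradation in mouse cells. It was the second highest RAB gene at 0.65 (SD 0.32). It had 3.87, 0.862 and 0.171 on the mastitis array against 2.30, 0.461 and 0.141 for the same 3 probes on the normal array, all higher with mastitis. RAB8A, which drives apical transport and cilium growth, had 0.681 against 0.922 (log2 ratio -0.44, 1 probe). RAB13, of the delivery of tight junction proteins, was at -0.41, and its 4 probes lay close together, between -0.47 and -0.37 (SD 0.04). RAB8B, the relative of RAB8A, was at 0.39 (SD 0.34, 2 probes). RAB10, of basolateral transport and insulin-driven glucose transporter delivery, was at -0.0021, with its 2 probes on opposite sides of 0 (-0.24 and 0.23). The median of the 5 genes, RAB12 included, was -0.0021, or 0.14 relative to all genes.

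The early endosome group matched all genes in its centre, with a median of -0.14 over 8 genes. RAB5A, the defining RAB of the compartment, was at 0.06 (SD 0.23, 3 probes). RAB5B and RAB5C, which share its role, were at -0.45 (SD 0.04, 2 probes) and -0.02 (SD 0.28, 3 probes). The lowest of the group was RAB20, which acts on phagosomes, at -0.93. Its 3 probes were dim, with net signals of 40, 28 and 11 on the mastitis array against 37, 29 and 18 on the normal array, and all had ratios below 0. The highest was RAB31 at 0.33 (SD 0.06, 2 probes). Its remaining probe was above background on the normal array alone (net signals of 4 with mastitis and 10 in normal tissue), and with no filter on dim probes RAB31 was at -0.46. The remaining RAB21, RAB22A and RAB24 were at 0.25, -0.26 and -0.44. Of the 2 cilium RABs, RAB23, which restrains hedgehog signalling, was at -0.34 from 1 dim probe. RAB28, known from photoreceptors, was at 0.41, and its 2 probes had 3.65 and 0.762 on the mastitis array against 2.80 and 0.562 on the normal array.

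RAB genes of the same number encode closely related proteins. Of 12 such pairs, 7 lay on opposite sides of the median of all genes, 6 lay more than 0.5 apart and 10 had probe ratios that did not overlap. Over all 1035 pairs of measured RAB genes these shares were 50.7%, 55.5% and 77.8%, so that the counts show nothing particular to close relatives. A gene with 1 measured probe has a single value in place of a range, and 2 such genes, as in the pair RAB3C and RAB3D, can only overlap where they are equal. RAB7A exceeded RAB7B by 1.09 on the log2 scale, a 2.13-fold difference between their ratios. RAB8A lay 0.83 below RAB8B (-0.44 and 0.39), and RAB11A lay 0.69 below RAB11B (-0.55 and 0.14). RAB33A lay below RAB33B by 0.93, but rested on 1 dim probe (net signals of 25 with mastitis and 22 in normal tissue). With no filter on dim probes RAB33A was at -0.03 and RAB33B at 0.40. RAB2A lay below RAB2B by 0.89, but above it with no filter on dim probes (-0.43 and -1.05). By contrast, RAB5A and RAB5C differed by 0.08, and RAB27A and RAB27B by 0.17, with overlapping probes. The sources used here do not give probe sequences, so that cross-hybridization between such relatives was not tested.

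**Figure D3:**
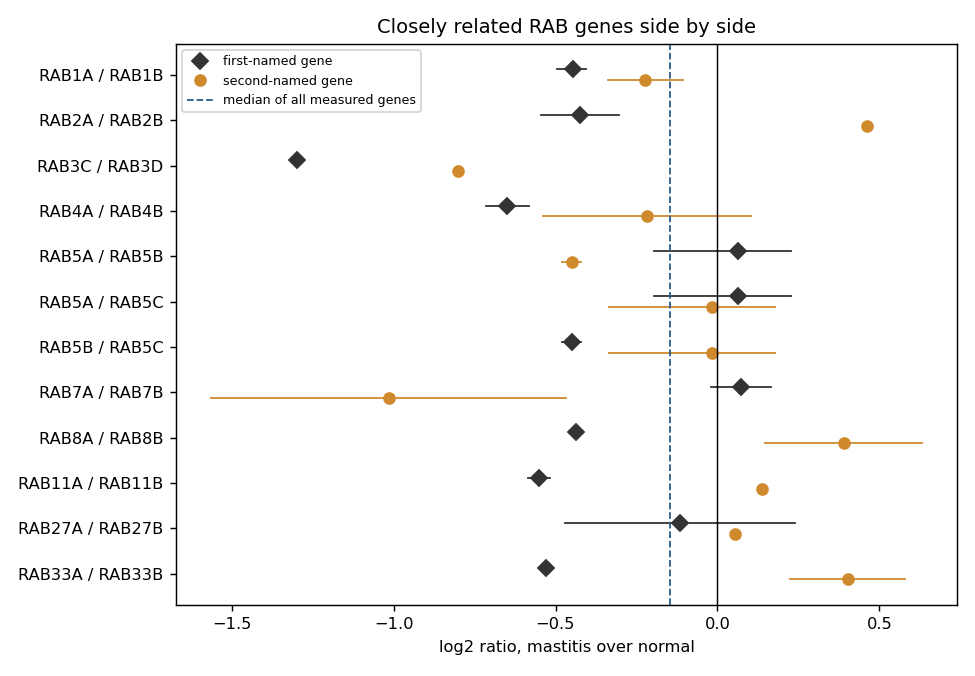
Log2 ratio (mastitis over normal) of the 12 pairs of measured RAB genes that share a number, with the mean of each gene as a symbol and the range of its probes as a line. In 10 pairs the probe values do not overlap (77.8% of all pairs of RAB genes do not), and in 7 the genes lie on opposite sides of the dashed line, the median of all genes (50.7% of all pairs do).

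The remaining 9 genes of the family had no probe measured on both arrays. RAB3A, RAB3B, RAB9B, RAB38 and RAB39A were above background on neither array. RAB6B, RAB19, RAB40B and RAB42 passed on the mastitis array alone, with net signals of 11 to 15 there against 7 or 8 on the normal array. The lower bound of the fold was 1.02 for RAB19 and under 1 for the other three, so that no difference can be stated for any of them.

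The proteins that load, switch and follow RABs were surveyed in textbook lists of 212 partner genes, of which 180 were measured. At least 2-fold lower were 12 and higher 1, shares of 6.67% and 0.556% beside the 9.12% and 2.29% of all genes, and the median was -0.17. Among the 8 chaperone and prenylation genes none was 2-fold apart. The lowest were RABIF, a RAB-binding chaperone (-0.80), RABAC1, which inserts RABs into membranes (-0.70), RABGGTA, a subunit of the prenylating enzyme (-0.60), and the escort protein gene CHML (-0.51).

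Exchange factors, which switch RABs on, included the second lowest partner gene. RAB3IP, the exchange factor of RAB8, was 4.57-fold lower (log2 ratio -2.19, SD 0.08, 2 probes), with scaled signals averaging 0.954 on the mastitis array against 4.35 on the normal array. DENND2D (-1.40) and the TRAPP subunit gene TRAPPC2 (-1.15) were also at least 2-fold lower, and DENND6A (1.01) was higher, each from 1 probe. These were 3 lower and 1 higher of 34 (8.82% and 2.94%, beside 9.12% and 2.29% of all genes). The median of the list was -0.10. Of 29 GTPase-activating proteins, which switch RABs off, 3 were lower (10.3%, beside 9.12%). These were TBC1D17 (-1.21), TBC1D14 (-1.15) and GRTP1 (-1.06), and RAB3GAP2 was at -0.98. The SDs of TBC1D17, TBC1D14 and RAB3GAP2 over probes were 0.71, 0.96 and 0.95, so that their sizes are rough.

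Effectors, which bind active RABs, had 3 lower genes of 42 (7.14%, beside 9.12% of all genes). EXPH5, an effector of RAB27, had 0.105 on the mastitis array against 0.328 on the normal array (log2 ratio -1.65, 1 dim probe). MYO5B, the motor that binds RAB11 and RAB25, averaged 0.757 on the mastitis array against 2.21 on the normal array (log2 ratio -1.55, SD 0.28, 2 probes). PLIN3, a lipid droplet protein that binds RAB9, was at -1.10 (SD 0.05, 2 probes), and RAB11FIP1, an effector of RAB11 and RAB25, at -0.82. The median of the effector list was -0.03, or 0.12 above that of all genes.

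SNAREs and fusion factors carry out the last step, and 3 of 41 were at least 2-fold lower (7.32%, beside 9.12% of all genes). SNAP25, a SNARE of the plasma membrane, had a scaled signal of 0.186 on the mastitis array against 2.26 on the normal array, a 12.2-fold difference from 1 probe (log2 ratio -3.60, or -2.36 with normexp). STX10 and YKT6, of Golgi and endosome traffic, were at -1.09 and -1.03, and STXBP2, a regulator of granule fusion, at -0.93. STX10 (1 probe) and YKT6 (3 probes, SD 0.23) were dim. STX10 had a net signal of 34 on the mastitis array against 44 on the normal array, and YKT6 at most 38 against 50. Below the median of all genes lay 31 of the 41, and the median of the list was -0.28. Of 26 exocyst and other tether genes none was 2-fold apart, and the lowest were EXOC6B (-0.79), COG7 (-0.59), VPS39 (-0.58) and COG2 (-0.49). Their SDs over probes were 1.19, 0.52, 0.84 and 0.29, and by the brightest probe EXOC6B was at 0.05 and VPS39 at -0.11. Among 16 ARF and ARL genes described here, a sister family of small GTPases, 2 were lower (12.5%, beside 9.12% of all genes). These were ARF3 (-1.16, 1 probe) and ARL15 (-1.15, SD 0.42, 2 probes), and both were dim. ARF3 had a net signal of 11 on the mastitis array against 15 on the normal array, and ARL15 at most 20 against 22. The coat GTPase gene SAR1B was at -0.96 (SD 0.90, 2 probes) and ARL3, a cilium GTPase, at 0.89.

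**Figure D4:**
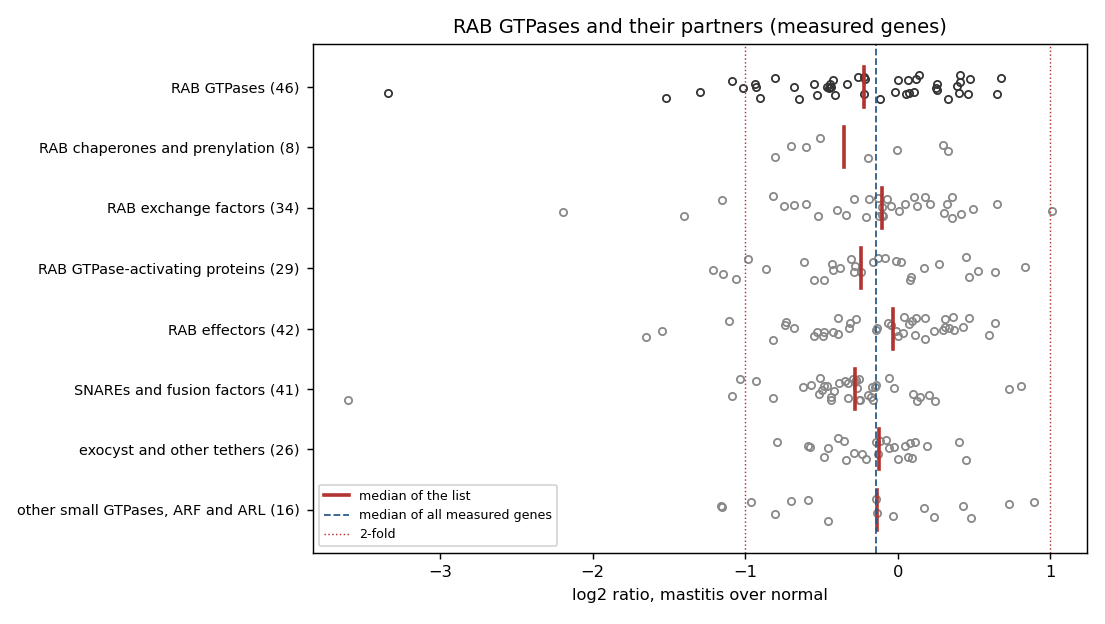
Log2 ratio (mastitis over normal) of the measured RAB genes and of the measured genes of each partner list, 1 point per gene, with the number of genes in parentheses and the median of each list as a bar. SNAP25 (-3.60), RAB26 (-3.34) and RAB3IP (-2.19) stand farthest to the lower side, and DENND6A (1.01) is the highest.

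Markers of some cell types of the gland differed between the arrays as well. Of 9 measured markers of the luminal secretory epithelium, 4 were at least 2-fold lower (CSN2, MUC1, CSN3 and ELF5). Summed scaled signals are given over all probes of all listed genes, measured or not, so that bright genes with many probes weigh most. For the 10 luminal genes the sum was 318 on the mastitis array against 4080 on the normal array. LALBA, a defining marker of milk secretion, was measured on the normal array only. The other 5 measured markers of this list were KRT18 (0.97), CDH1 (0.38), KRT8 (0.36), EPCAM (0.12) and KRT19 (-0.40). All 6 measured neutrophil markers were lower by 2-fold or more on the array labelled mastitis. The sums over all 8 listed neutrophil genes were 23.1 against 74.1. Of 6 macrophage markers 2 (CD163 and MRC1) were at least 2-fold higher and CD14 was at -0.77, with sums of 39.9 against 29.7. Of 7 T cell and 5 endothelial markers, 0 were 2-fold apart. Lower by 2-fold or more were 1 of 6 myoepithelial, 1 of 6 fibroblast and 2 of 6 B and plasma cell markers. In these lists 0 were 2-fold higher, but 4, 3 and 1 markers lay above 0, with KRT5 at 0.995 and PDGFRB at 0.92. The list medians were 0.22, 0.26 and -0.41. The sums were 81.2 on the mastitis array against 82.9 on the normal array (myoepithelial), 271 against 215 (fibroblast) and 47.9 against 47.4 (B and plasma cell). Of 3 measured adipocyte markers, 2 were lower by 2-fold or more (LEP and LPL). LEP was dim, with a scaled signal of 0.0429 on the mastitis array against 0.133 on the normal array. FABP4, the brightest of the 3, was at 0.12 (61.6 against 56.9). The sums over the 5 listed adipocyte genes were 63.4 on the mastitis array against 64.3 on the normal array. Of 2 measured mast cell and platelet markers, 1 (KIT) was higher. The array labels were taken as given and not checked independently, and every direction above rests on them. What part these cell types had in the RAB ratios was not tested.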

How the data were processed

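The authors deposited spot intensity values of 1 array labelled mastitis and 1 labelled normal: per the file headers, GenePix Pro 6.1 subtracted the mean of the negative controls and did no scaling. The deposited percent of saturated pixels and the software's flags were also read. The labels name Agilent Feature Extraction and a miRNeasy kit, and the methods an Affymetrix chip and Trizol; the header's Agilent layout was followed. Control spots were dropped, repeat spots averaged, and probes named by accession, then symbol, through a RefSeq table of ARS-UCD2.0, used for names only (110 RAB probes by accession, 4 by symbol). No test across cows was possible, so genes at least 2-fold apart were counted.

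The authors' deposited log2 table served as an alternative only: it has no stated method, and the Spearman correlation of its mastitis column with the scanner values was 0.103 by its own row names and 1.00 after a move of its rows by 1 probe.

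Members, partner lists and alternatives were chosen with earlier results of these data known. Named RAB genes are those at least 2-fold apart, the 5 highest and 5 lowest and a list of secretory RABs. Partners are the 4 largest ratios of each list, 1 ARF and ARL gene being left out and not reported here. All other RAB genes in the text were named after their values were seen. Protein features were not compared, since no sequences were used here. In simulated arrays of 12473 genes, all 100 genes changed 3-fold passed 2-fold and 0 of 12273 unchanged genes did, with the noise of replicate spots only. Python 3.11.15, numpy 2.4.6, pandas 2.3.3, scipy 1.17.1, matplotlib 3.10.9, R 4.3.3 and limma 3.58.1 (normexp, offset 50) were used.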

Additional observations from a re-analysis of the deposited data

How the results depend on the processing

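No paired analysis was possible because there is 1 array per condition, and for the same reason no replicate could be left out. The count of RAB genes at least 2-fold lower was 5. It was 2 with the normexp background correction (RAB15 and RAB26), beside 3.26% of all genes. It was 3 with quantile normalization, 3 with median scaling and 3 with spike-in scaling, beside 6.04%, 6.66% and 5.6% of all genes. With no scaling it was 1 (RAB26), beside 2.65%. With no filter on dim probes it was 9 of 55 RAB genes, beside 23.9%. When both arrays needed a net signal of at least 50 it was 2 of 37, beside 6.14%. These were RAB15 and RAB40C, RAB26 being left out. At 1.5-fold it was 11, beside 21.6%. The share of all genes thus moved between these settings too. The count higher was 0, with 9 under no scaling, beside 20.2% of all genes, and 2 at 1.5-fold, beside 7.78%. The RAB median of -0.22 was 0.0432 with spike-in scaling, 0.49 with no scaling and -0.0021 with a net signal of at least 50. Relative to all genes it lay between -0.16 and 0.11 over 15 settings, the highest with no filter. Over these settings RAB26 was at least 2-fold lower in each of the 14 in which it was measured, RAB15 in 14 of 15 (not with no scaling), RAB40C in 11, RAB3C in 10 of 14 and RAB7B in 7. The single probe of RAB26 must give the same -3.34 in settings that only select or combine probes. These are no filter, flagged spots kept, saturated probes left out, brightest probe, median over probes and accession probes only. RAB3C and RAB40C, with 1 measured probe each, were likewise fixed there, except with no filter. Relative to the median of all genes, 19 RAB genes lay below and 15 above in all settings, and 12 changed side. Part of this stability is fixed in advance. The main setting, median, spike-in and no scaling, and percentile scaling over probes measured on both arrays differ by a constant only. Values relative to the median of all genes, such as -0.0769 for the RAB median, must be the same in them. Leaving out saturated probes touched no RAB probe. These limits apply to the ranges of the family and role medians too. The late endosome and lysosome median lay 0.31 to 0.54 above that of all genes, the recycling endosome median -0.51 to -0.15 from it, and regulated exocytosis changed side.

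Partner genes at least 2-fold lower were 12, beside 9.12% of all genes. With the share of all genes in parentheses, they were 4 with normexp (3.26%), 7 with median scaling (6.66%) and 5 with spike-in scaling (5.6%). They were 2 with no scaling (2.65%), 26 with no filter (23.9%) and 7 with a net signal of at least 50 (6.14%). At 1.5-fold they were 31 (21.6%). Partners higher were 1, beside 2.29% of all genes. They were 0 under normexp (0.778%), 3 with spike-in scaling (4.97%) and 29 with no scaling (20.2%). They were 3 with a net signal of at least 50 (2.41%) and 4 with the brightest probe (2.89%). In the moved deposited table they were 2 (3.75%), and at 1.5-fold 8 (7.78%). The partner median of -0.17 was 0.10 with spike-in scaling and 0.55 with no scaling.

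By the row names of the deposited table, whose rows are displaced, 2 RAB genes were lower and 11 higher (median 0.10). Partners were 25 lower and 19 higher (median 0.0375). Of all genes, 11.5% were lower and 12.3% higher there. Log2 ratios turned to 1.06 for RAB7B, 0.03 for RAB26, 0.57 for RAB40C, 0.50 for TRAPPC2 and 2.66 for GRTP1. They turned to 5.38 for EXPH5, 0.17 for MYO5B, 0.51 for SNAP25, 1.21 for STX10 and 1.75 for ARL15. Apart from the displacement, the causes were not tested. Ratios of probes near background, such as those of RAB3C and RAB3D, are the least precise.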

Other observations

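Outside the rule, 7 array probes carry no gene name but a description that names a RAB protein, and 5 of them were measured on both arrays. The probe described as RAB17, an early endosome RAB of epithelial cells in mouse, had a net signal of 84 with mastitis and 120 in normal tissue, 2.34-fold lower after scaling (log2 ratio -1.23). Probes described as RAB8A (-0.55) and RAB4A (-0.36) lay on the same side as the named probes of these genes. The probe described as RAB35 lay at 0.83, with net signals of 346 with mastitis and 119 in normal tissue, opposite to the mean of -0.47 over the 2 named RAB35 probes. The probe described as RAB2A was at 0.03, with net signals of 1654 with mastitis and 985 in normal tissue. It lay above the 3 named RAB2A probes, which ranged from -0.54 to -0.305. The probe described as RAB36 was measured on the mastitis array alone, since the scanner software did not find its spot on the normal array (net signals of 16 with mastitis and 10 in normal tissue), and that described as RAB44 was measured on neither. No probe sequence was compared, so that these descriptions were taken as the file gives them.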
